A study of Mus musculus with 42 samples.

Results

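Upstream antisense polyadenylation sites (PASs) are cleavage and poly(A) addition sites of transcripts that start near a gene's promoter and run away from the gene on the opposite strand. Here a site was taken when it lay within 5 kb upstream of the start of a protein-coding gene of mouse build mm9, on the strand opposite to the gene, and outside every annotated gene on its own strand. Of 83916 PASs found in 38 libraries of 3′READS, a sequencing method that reads the ends of polyadenylated RNAs, 3106 met this rule. The mitochondrial genome gave 133 of them and was left out, which left 2973 sites.

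NIH3T3 mouse fibroblasts and C2C12 mouse muscle cells, the latter as proliferating myoblasts (MB) or differentiated myotubes (MT), were left untreated (NT), stressed for 1 h with sodium arsenite at 250 µM (AS), or stressed and returned to fresh medium for recovery (RC, with the hours in the name). NIH3T3 total RNA was read in 3 NT and 3 AS libraries (replicates 1, 2 and 4) and in 1 library each of RC4, RC8, RC12 and RC24. NIH3T3 RNA labelled with 50 µM 4-thiouridine for 1 h before harvest was split into the labelled, newly made RNA (4sU) and the unbound flow-through (Ft), each with 2 NT libraries, 1 AS and 1 RC4. The 2 NT libraries here, and those of C2C12 cytoplasm, are labelled with different times, 0 h and 4 h, so the spread between them includes any difference of time. Antibody pull-down of the RNA-binding protein TIA1 and its cytoplasmic input had 2 NT and 2 AS libraries each. The C2C12 cells gave cytoplasmic RNA (2 NT, 1 AS and 1 RC4 for each state) and total RNA of untreated cells (2 for each state). No genotype was altered and both lines are established cultures. The study's text calls the replicates of total RNA after arsenite, of the pull-down and of C2C12 differentiation biological, without saying how the cultures were separated, and p-values measure the spread between these libraries.

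Promoters of many mammalian genes fire in both directions. The antisense RNA is usually short, because it meets poly(A) signals soon after its start and few of the 5′ splice sites that U1 snRNP would use to suppress them, and most such RNA is degraded in the nucleus by the exosome. The poly(A) signal is the hexamer AATAAA, or less often ATTAAA, a short way before the cleavage point.

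The 2973 sites were of 2 kinds. For 902 sites, here called gene-end sites, an annotated gene on the site's own strand ended within 10 kb upstream of the site. For the other 2071, called isolated sites, it did not. Gene-end sites held 80.7% of the reads, and 201 of them lay within 10 nt of the annotated end and alone held 58.7%. The site of Tbc1d10c lay 1 nt past the end of Ppp1ca, the alpha catalytic subunit of protein phosphatase 1, and that of Gm9887 lay 1 nt past Arf6, a small GTPase of membrane traffic. Counting 1 site a gene, the 10 with the most reads had 32402 (Rab24) to 114622 reads (Tbc1d10c). Those of Tbc1d10c, Vars, Htra2, Gm9887, Slc3a2, Hspb2, Cwc25, Trim46 and Rab24 lay 1 to 26 nt past an own-strand gene's end, and that of Ceacam9 was isolated. Such sites are the ordinary 3′ ends of neighbouring genes, so the label of promoter antisense RNA goes against the data for most of the reads. The isolated sites are therefore described apart throughout. They held 19.3% of the reads, or 0.194% of all PAS reads outside the mitochondrial genome.

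The following isolated sites are shown because they had the most reads or were called in a comparison. Each sequence is the 30 nt of mm9 that end at the PAS, on the site's strand, with the hexamer AATAAA or ATTAAA nearest the site in capitals.
Ceacam9, chr7:17304413-17304442, minus strand: aAATAAAaagtcctatttgtgaaaaaaaaa
Tbce, chr13:14134422-14134451, plus strand: ttAATAAAatcagtggccttcaaaaaaaaa
Yy1, chr12:110030673-110030702, minus strand: ggccgcAATAAAgtctgctctgacgagaaa
Insig2, chr1:123230433-123230462, plus strand: tatttttaAATAAAgggtgtttttaatata
Galnt7, chr8:60134411-60134440, plus strand: cttgcgAATAAAaagttacatgacattgga
Glis1, chr4:107106382-107106411, minus strand: tgtttgagaatagaggaccttagtcttaaa
Lemd3, chr10:120417172-120417201, plus strand: tacttAATAAAtgttttatttattttgaaa
Gls2, chr10:127629121-127629150, minus strand: cttatatacaataaaaataAATAAAtcttt
Pik3c2a, chr7:123587809-123587838, plus strand: ttggtttaAATAAAcacgcttgcacttcta
Grtp1, chr8:13201761-13201790, plus strand: aactctgctgaacaaggattctctaccaaa
Pigb, chr9:72890553-72890582, plus strand: gtatgctttaaataAATAAAtcatgggtaa
The sequences of Glis1 and Grtp1 hold neither hexamer in this window, and those of Ceacam9 and Tbce end in runs of genomic A.

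Among all 2071 isolated sites, 46.4% had AATAAA in the 40 nt before the site and 60.4% had AATAAA or ATTAAA. The same shares were 46.3% and 61.5% for gene-end sites, and 35.1% and 48.7% for the 50807 PASs inside protein-coding genes. The AATAAA began a median of 23 nt before the site in all 3 classes. Sites listed in 1 library only (1027, or 49.6% of the isolated sites) had AATAAA or ATTAAA in 52.5%, and the 481 sites listed in at least 5 libraries had one in 71.9%. At least 12 A in the 20 nt of genome after the site were found for 2.95% of isolated sites and 1.33% of PASs in protein-coding genes.

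The 1490 genes with an isolated site had promoters rich in CpG. In the 500 nt on each side of the start, the median ratio of observed to expected CpG was 0.797, against 0.549 over 22367 protein-coding genes. Both strands around these starts were searched for AATAAA, read away from the start on each side. It was present in 40.2% of the 1 kb antisense windows and 15.2% of the 1 kb sense windows of genes with an isolated site, against 41.3% and 23.7% over all genes. The 5′ splice site hexamer GTAAGT was present in 11.9% of antisense and 14.6% of sense windows of these genes, against 14.4% and 19.9% over all genes. AATAAA was thus more common on the antisense side than on the sense side, both for genes with an isolated site and over all genes. These are counts of letters and do not show that a factor binds.

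**Figure D1:**
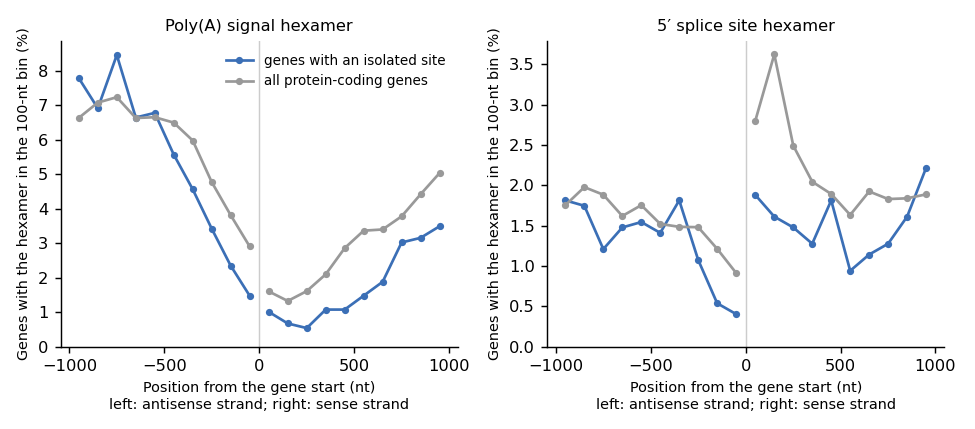
Share of genes (%, y axis) with AATAAA (left panel) or GTAAGT (right panel) in each 100-nt bin by distance from the gene start (nt, x axis), on the antisense strand upstream and on the sense strand downstream, for the 1490 genes with an isolated site and for all 22367 protein-coding genes. In genes with an isolated site the share with AATAAA reached 8.46% on the antisense side at 701 to 800 nt, and 3.02% at the same distance on the sense side.

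Isolated sites were most frequent 501 to 1000 nt before the start, with 234 sites in each of the 2 bins of 250 nt, and their median distance was 1375 nt. Gene-end sites had a median distance of 2169 nt. They too were most frequent near the start, with 67, 57, 78 and 62 sites in the bins from 251 to 1250 nt. Beyond 1250 nt their bins held 30 to 49 sites. At the edge of the window, 46 isolated sites lay at 4751 to 5000 nt, with a median of 11 reads, and 40 sites of the same kind lay just outside at 5001 to 5250 nt, with a median of 12 reads. One isolated site was found at 1109 genes and 2 or more at 381. Pcif1, a cap-adenosine methyltransferase of mRNA, and Zfp523, a zinc finger protein, had 7 each. At Pcif1 they spread from 136 to 4447 nt, and the farthest had the most reads (214 over 14 libraries).

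**Figure D2:**
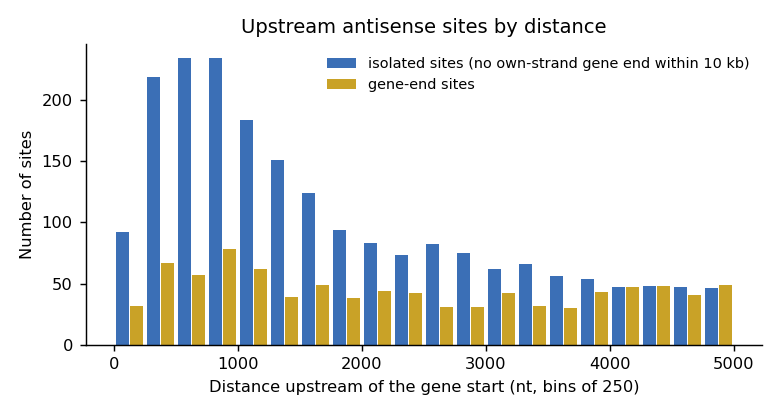
Number of isolated and gene-end sites (y axis) by distance upstream of the gene start (nt, x axis, bins of 250). Isolated sites are most frequent at 501 to 1000 nt and decline to 46 in the last bin. Gene-end sites number 57 to 78 per bin from 251 to 1250 nt and 30 to 49 beyond.

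Of the 1490 genes, 1353 (90.8%) also had PAS reads of their own on the sense strand, against 60.2% of all protein-coding genes. In untreated 4sU RNA their median sense level was 52.3 RPM (reads per 1000000 PAS reads outside the mitochondrial genome), against 20.3 over all genes with PAS reads. For the 428 genes with both kinds of read in these libraries, the isolated sites had a median of 2.68% of the sense level, and 14 had more antisense than sense reads. This leaves out the 10 isolated sites with the most reads.

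Among those 10 were the sites of Ceacam9, 3222401L13Rik, Tbce, Pigb, Pik3r2, Gm17728, Yy1, Spty2d1 and Zmym5. The Ceacam9 site, 2865 nt before that gene, had 94462 reads, and in NIH3T3 total RNA its level ranged from 512 to 1875 RPM. Yy1, a zinc finger transcription factor, had a site at 510 nt, and Pik3r2, a regulatory subunit of PI3-kinase, one at 865 nt. Most isolated sites were far lower, with a median of 14 reads summed over all libraries.

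Depth was 1048335 to 6974664 PAS reads per library, with a median of 2874186. A PAS with under 5 reads in a library is not listed in its file, so a value of 0 may stand for up to 4 reads and deeper libraries list more sites. For summed levels one floor was therefore set per experiment, at 5 reads of its shallowest library, and sites under it counted as 0 in every library of that experiment. Fibroblast marker genes (8 of 8 listed) summed to 4198 to 21992 RPM in NIH3T3 libraries, where the 4 myoblast markers were all at 0. The fibroblast list was as high in C2C12 libraries (7 of 8 listed, 12416 to 21705 RPM), so it does not tell the lines apart. The myoblast list had 71.8 to 168 RPM in MB and 168 to 716 RPM in MT, and 1 of its markers, Cdh15, was at 0 in every library. Of 7 myotube markers, 6 were listed in MT libraries, summing to 7573 to 12049 RPM, against 77.2 to 265 RPM in MB. Ckm, the other one, was at 0 in these sums because its 3′ end is a gene-end site described below.

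Without the 10 largest, the isolated sites had a higher summed level in newly made RNA than in pre-existing RNA. They summed in 4sU RNA to 1193 and 1137 RPM in the 2 NT libraries, 1638 in AS and 1535 in RC4. In Ft RNA they summed to 747 and 804 RPM in NT, 882 in AS and 533 in RC4. Every 4sU library was above every Ft library, and the ratio of the means was 1.86. With the 10 largest and no floor the direction turned (log2 ratio -0.14), and 4sU was below Ft in 3 of 4 pairs, with 2230 against 2690 and 2356 against 2962 RPM in NT and 2607 against 2933 RPM in AS, whereas RC4 had 2880 against 2477 RPM. The Ceacam9 site alone had 504 to 763 RPM in 4sU and 1321 to 1479 RPM in Ft. Gene-end sites went the other way, with 6251 to 7124 RPM in 4sU and 7820 to 8057 RPM in Ft. In every other experiment the isolated sites without the 10 largest were lower than in 4sU RNA, apart from 1 TIA1 library, although floors differ between experiments. Total NIH3T3 RNA held 375 to 922 RPM, cytoplasmic input 305 to 516 RPM and cytoplasmic C2C12 RNA 141 to 317 RPM.

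**Figure D3:**
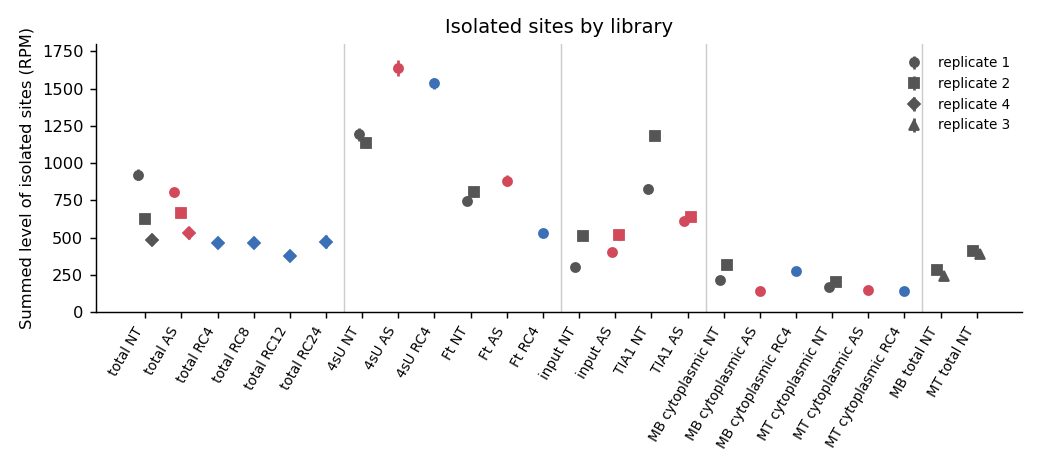
Summed level of isolated sites without the 10 largest (RPM, y axis) in each of the 38 libraries by group (x axis), above the floor of each experiment, with 95% Wilson intervals that cover counting error only and are mostly smaller than the points. Grey is NT, red AS and blue RC, symbols give the replicate number, and vertical lines separate experiments or sets. The 4 4sU libraries sit at 1137 to 1638 RPM and the 4 Ft libraries at 533 to 882 RPM.

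The excess in 4sU RNA without the 10 largest lay mainly beyond 1000 nt from the start. These 4sU levels were not adjusted for the number of uridines, which affects capture, and its part in this was not tested. From 1 to 500 nt the 4sU NT libraries had 71.5 and 55.4 RPM and the Ft NT libraries 100.3 and 124 RPM. From 4001 to 5000 nt they had 118 and 127 RPM in 4sU and 27.8 and 29.3 RPM in Ft. Sites within 2 kb made up 48.7% to 60.9% of the isolated level in 4sU libraries and 75.1% to 81.5% in Ft libraries. The lowest share, 48.7%, was that of 4sU RC4, where sites at 4001 to 5000 nt reached 246 RPM. Sites beyond 1000 nt were higher in 4sU than in Ft in each of the 4 pairs. Nearer sites differed in direction between pairs. Up to 500 nt, 4sU was lower in both NT pairs and at RC4 (60.3 against 74.3 RPM) and higher in AS (129 against 123 RPM). From 501 to 1000 nt it was lower in both NT pairs (268 against 296 and 221 against 267 RPM) and higher in AS (379 against 355 RPM) and RC4 (289 against 217 RPM).

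**Figure D4:**
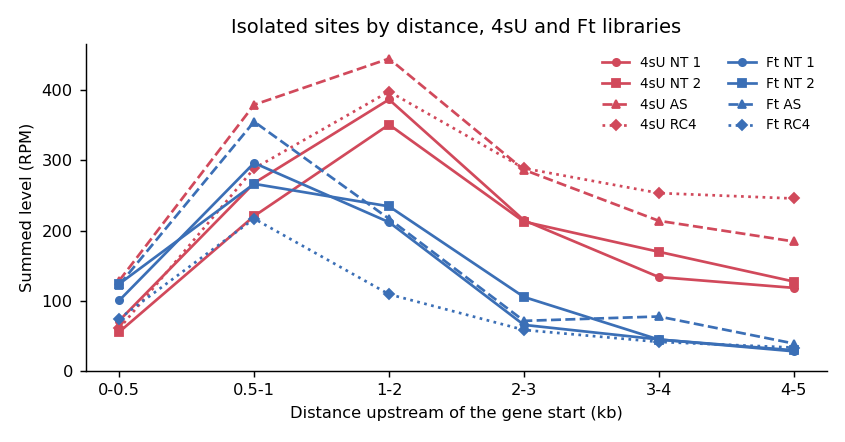
Summed level of isolated sites without the 10 largest (RPM, y axis) by distance upstream of the start (kb, x axis) in the 8 labelled-RNA libraries, 4sU in red and Ft in blue. In the last bin the 4sU libraries have 118 to 246 RPM and the Ft libraries 27.8 to 38.9 RPM.

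Site by site, 650 of the 2973 sites had enough reads to be tested between 4sU and Ft in edgeR's quasi-likelihood test with the sample as a block. Of these, 41 were higher in 4sU and 50 in Ft at a Benjamini-Hochberg adjusted p under 0.05, against 29.7% of all 28056 PASs tested. Among the 379 isolated sites tested, 24 were higher in 4sU (6.33%, against 16.8% of all PASs) and 9 in Ft (2.37%, against 12.9%). Among the 271 gene-end sites tested, 17 were higher in 4sU and 41 in Ft. The median log2 difference of the isolated sites tested was 1.13, against 0.36 for all PASs. With unlisted values set to 5 reads, since 91 of the isolated sites were unlisted in a whole fraction, the medians were 0.45 and 0.42. So the share of isolated sites called was below that of all PASs, and with that bound their median was near that of all PASs. By distance, the bounded median was -0.10 for 125 isolated sites up to 1 kb and 0.67 for 156 sites beyond 2 kb.

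Insig2, an endoplasmic reticulum protein that holds back SREBP processing, had an isolated site at 1296 nt. Its level was 6.86 and 8.49 RPM in 4sU NT, 9.97 in AS and 14.7 in RC4, whereas in Ft it was listed in the second NT library alone, at 1.87 RPM (log2 difference 4.37 ± 0.91 SE, adjusted p = 0.000757). Etf1, the translation termination factor eRF1, had a site at 3451 nt with 3.00 and 6.36 RPM in 4sU NT, 7.98 in AS and 6.06 in RC4, and it was listed in no Ft library (adjusted p = 0.0102). Nudt4, an inositol pyrophosphate hydrolase, showed the same pattern at 908 nt, with 3.43, 1.59, 7.98 and 5.82 RPM in the same order (adjusted p = 0.0486). Pram1 at 3165 nt had 9.0, 10.1, 5.98 and 7.22 RPM in 4sU and was listed in 1 Ft library at 1.76 RPM (adjusted p = 0.00359). At these 4 sites every 4sU value was above every Ft value, although the 1.59 RPM of Nudt4 is near what 5 reads are worth. The sites were taken from those called, so this follows from the choice and adds no support. Those of Etf1 and Nudt4 passed the count filter through 4sU alone.

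On the Ft side, the site of Glis1, a zinc finger transcription factor, lay at 814 nt. It had 15.8 and 15.6 RPM in Ft NT, 12.1 in AS and 4.35 in RC4, against 3.43, 2.39, 4.49 and 1.86 RPM in 4sU (log2 difference -2.14 ± 0.42, adjusted p = 0.000465). Tbce, a tubulin folding cofactor, had 72.8 to 93.3 RPM in Ft and 15.6 to 35.4 RPM in 4sU (log2 difference -1.88 ± 0.21, adjusted p = 9.15e-07). Ceacam9 had 1321 to 1479 RPM in Ft and 504 to 763 RPM in 4sU (log2 difference -1.42 ± 0.15, adjusted p = 4.77e-07). The other isolated sites higher in Ft were those of Tbc1d22a, Pdcd6ip, Prep, P4hb, 3222401L13Rik and Pik3r2. Of the gene-end sites with the largest differences, those of Haghl, 1700034F02Rik, Prdm11 and Gpr172b were higher in Ft and those of Gm12353 and Acadvl in 4sU. The site of Gpr172b, 7 nt past the end of Fbxl6, had 65.9 to 109 RPM in Ft and 13.3 to 29.2 RPM in 4sU.

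One hour of arsenite moved no member past the threshold in NIH3T3. In total RNA 0 of 220 sites tested were called by edgeR, against 0% of 15966 PASs, and 0 by DESeq2. At an unadjusted edgeR p under 0.05 were 1 of the 220 and 29 of the 15966. In cytoplasmic input 0 of 333 were called, against 0% of all PASs, and 0 by DESeq2. At an unadjusted edgeR p under 0.05 were 1 of the 333 and 285 of all 20317 PASs. The TIA1 libraries were in that fit and added to its estimate of the spread. In 4sU RNA 0 of 650 were called, against 0.2% of all PASs, with 59 at an unadjusted p under 0.05 and 6 by DESeq2. In Ft RNA 0 of 650 were called, against 0.057%, with 31 at an unadjusted p under 0.05 and 1 by DESeq2. AS and RC4 had 1 library per fraction. The 4sU and Ft fits therefore take the spread from the 0 h and 4 h NT libraries and assume that the lone libraries vary alike. Their count filter followed the smallest group, so a site could also be tested through a lone AS or RC4 library. In both fractions the share of members at an unadjusted p under 0.05, or called by DESeq2, was below that of all PASs.

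The summed level of isolated sites in total RNA was 922, 624 and 486 RPM in NT (replicates 1, 2 and 4) and 804, 668 and 530 RPM in AS. It was lower in AS in replicate 1 and higher in replicates 2 and 4, and the groups overlapped. With the 10 largest and no floor each of these directions turned (NT 2079, 3138 and 1807 RPM, AS 2120, 3069 and 1739 RPM), and the groups still overlapped. In the time course of replicate 4 it was 465 RPM at RC4, 466 at RC8, 375 at RC12 and 472 at RC24, so that RC12 was the lowest and the other times lay just below NT. With the 10 largest and no floor RC4 lay above NT (1985 against 1807 RPM). Above the floor, the 4sU AS library (1638 RPM, 95% interval 1583 to 1695) exceeded both NT libraries, and so did the Ft AS library (882 RPM, 846 to 919). This depended on the floor. Without it, 4sU AS (1638 RPM) lay between its NT libraries (1332 and 1649.5 RPM). Ft AS (1135 RPM) also lay between its own (1051 and 1199 RPM). With the 10 largest and no floor, 4sU AS was above both (2607 against 2230 and 2356 RPM). Ft AS again lay between (2933 against 2690 and 2962 RPM). The input libraries overlapped, at 305 and 513 RPM in NT and 404 and 516 RPM in AS.

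After 4 h of recovery the summed level of isolated sites was higher in newly made RNA and lower in pre-existing RNA than in NT. The 4sU RC4 library had 1535 RPM (95% interval 1498 to 1572) and lay above both NT libraries, by a ratio of 1.32. The Ft RC4 library had 533 RPM (507 to 560) and lay below both, by a ratio of 0.687. This difference was not tested, since each fraction had 1 RC4 library. AS and RC4 were compared with the same NT libraries. In 4sU RNA 9 of 650 sites rose and 8 fell, against 5.81% of all PASs called (3.31% higher and 2.5% lower). In Ft RNA 10 rose and 13 fell, against 6.01% of all PASs (3.72% higher and 2.28% lower). Without either NT library the calls dropped to 2 or 3 in 4sU and to 2 or 4 in Ft.

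Lemd3, an inner nuclear membrane protein that restrains SMAD signalling, had the isolated site that rose in both fractions. At 813 nt it had 7.71 and 3.98 RPM in 4sU NT, 12.0 in AS and 36.8 in RC4 (log2 difference of RC4 to NT 2.96 ± 0.41, adjusted p = 0.0194). In Ft it had 4.58 and 6.23 RPM in NT, 6.61 in AS and 26.4 in RC4 (2.56 ± 0.43, adjusted p = 0.0318). In the time course of total RNA it was listed at RC4 alone, at 11.0 RPM. RC4 was thus above every other labelled-RNA library. The sense PASs of Lemd3 rose in Ft (log2 difference 1.52 ± 0.41, adjusted p = 0.0234), and in 4sU their difference was 0.97 ± 0.35 (adjusted p = 0.0702).

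Gls2, the liver-type mitochondrial glutaminase, had a site at 2392 nt with 4.71 and 10.3 RPM in 4sU NT, 6.98 in AS and 30.3 in RC4 (log2 difference 2.19 ± 0.45, adjusted p = 0.0498). In the total RNA time course it had 6.29 RPM in NT, 7.05 in AS, 19.8 at RC4 and 9.13, 9.40 and 11.9 at RC8, RC12 and RC24. Proc, the zymogen of the anticoagulant protein C, had a site at 3575 nt with 9.43 and 10.6 RPM in 4sU NT, 22.4 in AS and 28.6 in RC4 (1.75 ± 0.32, adjusted p = 0.0381). Pik3c2a, a class II PI3-kinase, had a site at 866 nt with 3.43 and 3.71 RPM in 4sU NT and 5.48 in AS, and it was unlisted in RC4 (adjusted p = 0.0471). Its sense PASs did not pass the test in the same comparison (log2 difference 0.72 ± 0.36, adjusted p = 0.181). In Ft the site of Pik3c2a had 7.04, 6.85 and 11.3 RPM in the NT and AS libraries and 2.68 in RC4.

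In Ft RNA 4 isolated sites passed the test as lower at RC4, and all 4 were unlisted there. Others, such as that of Galnt7 at 2611 nt, were unlisted at RC4 without passing (adjusted p = 0.406). Sart1, a protein of the spliceosomal tri-snRNP, had 7.74 and 7.79 RPM in NT and 10.5 in AS at 650 nt (adjusted p = 0.0328). Osmr, the oncostatin M receptor, had 4.93, 8.41 and 7.78 RPM at 1747 nt (adjusted p = 0.0419). Srcap, a chromatin remodelling ATPase, had 6.69, 5.61 and 8.56 RPM at 735 nt (adjusted p = 0.0494), and Ppa2, a mitochondrial pyrophosphatase, had 5.28, 4.98 and 8.17 RPM at 2592 nt (adjusted p = 0.0419). The 4 that passed stayed listed in 4sU RC4, at 2.80 to 6.99 RPM. The site of 6530409C15Rik at 3189 nt was listed at RC4 alone in Ft (4.02 RPM), so its call there rests on that library.

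**Figure D5:**
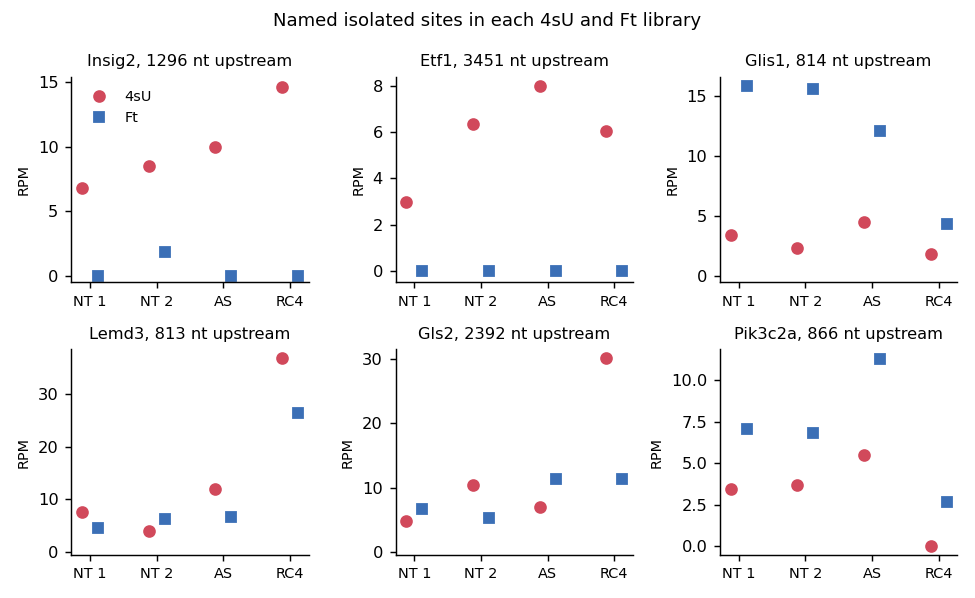
Level (RPM, y axis) of 6 isolated sites in each 4sU (red circles) and Ft (blue squares) library, NT 1, NT 2, AS and RC4 (x axis), where 0 means that fewer than 5 reads were found. Lemd3 reaches 36.8 RPM in 4sU and 26.4 RPM in Ft at RC4, and Etf1 is listed in 4sU libraries only among these 8.

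Across the 323 isolated sites tested whose gene also had sense PAS values, the log2 change at RC4 in 4sU RNA and that of the sense PASs had a Pearson r of 0.368 and a Spearman rho of 0.358. In Ft they were 0.242 and 0.295, and for AS in 4sU 0.0257 and 0.109. Each pair of values comes from the same libraries, sites of 1 gene share their sense value, and the coefficients are descriptions.

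Among the gene-end sites that rose in recovery were ends of chaperone genes on the site's own strand. The site 4282 nt before Hspb2, a small heat shock protein gene, is 3 nt past the end of Cryab, which encodes the chaperone alpha-B crystallin. It had 60.8 and 82.5 RPM in 4sU NT, 185 in AS and 1263 in RC4 (log2 difference 4.38 ± 0.28, adjusted p = 0.00478), and in Ft 117 and 169 RPM in NT, 161 in AS and 2280 in RC4 (4.28 ± 0.28, adjusted p = 0.00336). In the total RNA time course it had 171 RPM in NT, 177 in AS, 783 at RC4, 604 at RC8, 440 at RC12 and 152 at RC24, so that it was back below NT at the last time. A second site 60 nt past the end of Cryab was unlisted in all labelled-RNA libraries but RC4, at 10.3 RPM in 4sU and 18.4 RPM in Ft. The Hspd1 site lies 5 nt past the end of Hspe1, the mitochondrial co-chaperonin that shares a promoter with Hspd1. It had 78.8 and 72.1 RPM in 4sU NT, 143 in AS and 221 in RC4 (1.80 ± 0.19, adjusted p = 0.0110).

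Other gene-end sites that rose at RC4 in 4sU were those of Ccdc85b, 2104 nt past the AP-1 gene Fosl1 (1.75 ± 0.28, adjusted p = 0.0280), Prorsd1 and Slc16a13. The Slc16a13 site, 6624 nt past Slc16a11, had 34.9 RPM in 4sU RC4 and at most 1.59 RPM in the other 4sU libraries. In Ft the site of Fut1 was listed at RC4 alone, at 21.8 RPM, so its call there rests on that library. The site lies 9 nt past the end of Fgf21, a hormone induced by stress. Sites that fell in both fractions included that of Vars, 11 nt past D17H6S56E-5, with 716 and 647 RPM in 4sU NT and 111 in RC4 (-2.37 ± 0.20, adjusted p = 0.00763). That of E130208F15Rik, 2 nt past Sdhaf1, an assembly factor of succinate dehydrogenase, had 93.8 and 58.6 RPM in 4sU NT and 12.8 in RC4. The sites of Rhoa, 1 nt past Tcta, and 9330160F10Rik also fell in 4sU. In Ft a second site of Vars and those of Cyb561d2 and Hist1h2bj were unlisted at RC4. Replicate 4 stood apart for several of these sites, since the Vars site had 953 and 944 RPM in total RNA NT replicates 1 and 2 and 120 RPM in replicate 4.

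In cytoplasmic C2C12 RNA, MB and MT in 1 fit, 0 of 220 sites tested were called after arsenite by edgeR, against 0.107% of all PASs. At an unadjusted edgeR p under 0.05 were 12 of the 220, against 1605 of all 19681 PASs. DESeq2 called 4, against 1.94% of all PASs. At RC4 5 rose and 8 fell, against 3.57% of all PASs (2.2% higher and 1.37% lower). The Hspb2 site at the end of Cryab went from 194 and 200 RPM in MB NT to 1470 RPM at RC4, and from 538 and 476 RPM in MT NT to 2740 RPM (log2 difference 2.84 ± 0.35, adjusted p = 0.00612). The Hspd1 site at the end of Hspe1 went from 389 and 285 RPM to 598 RPM in MB and from 138 and 114 RPM to 291 RPM in MT (1.23 ± 0.18, adjusted p = 0.0114). Sites at Tyro3, 241 nt past a U6 gene, at Ccdc85b and the second one at Hspb2 also rose. The sites of Pmm2, Zmynd12, E130208F15Rik and Yipf2 fell. The isolated site that passed was that of Zmym5 at 1278 nt, with 5.20 and 4.33 RPM in MB NT and 6.88 and 8.06 RPM in MT NT, and it was unlisted at RC4 in both states (adjusted p = 0.0433). Without either RC4 library 1 site was called.

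The isolated sites summed to 217 and 317 RPM in MB NT, 141 in AS and 277 in RC4, and to 165 and 203 RPM in MT NT, 147 in AS and 141 in RC4. Above the floor both AS libraries were below every NT library. Without the floor MB AS (244 RPM) lay between its NT libraries (217 and 397 RPM). MT AS (250 RPM) stayed below its own (275 and 329 RPM). With the 10 largest and no floor each AS library was below the NT libraries of its state (MB 1061 against 1151 and 1395 RPM, MT 956 against 1039 and 1126 RPM). At RC4 the MB library lay between its NT libraries and the MT library below both of its own.

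In total RNA, myotube cultures had a higher summed level of isolated sites than myoblasts. In untreated cytoplasmic RNA, given above, both MT libraries lay below both MB libraries above the floor. Without the floor these cytoplasmic libraries overlapped (275 and 329 RPM in MT, 217 and 397 RPM in MB). More differentiated cells and more such RNA per cell cannot be told apart in these bulk samples. In total RNA the sites summed to 412 and 388 RPM in MT (replicates 2 and 3) and 279 and 245 RPM in MB, a ratio of 1.53, and gene-end sites were lower in MT, at 7179 and 6991 RPM against 7820 and 8006 RPM in MB, in either order of replicates. Of 201 sites tested, 65 were higher in MT and 38 in MB, against 49.5% of all PASs. Among the 57 isolated sites tested, 22 were higher in MT (38.6%, against 26.8% of all PASs) and 4 in MB (7.02%, against 22.7%). Of the 57, 13 were unlisted in a whole state, against 1451 of 19543 PASs. The shares called therefore take in sites tested through 1 state alone. The median log2 difference of the 57 was 0.60, and 0.40 with unlisted values at 5 reads, against 0.04 and -0.12 for all PASs.

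Grtp1 had an isolated site at 1170 nt with 35.8 and 30.3 RPM in MT total RNA that was unlisted in every MB library (adjusted p = 9.14e-06). Its sense PASs were also higher in MT (log2 difference 5.32 ± 0.37, adjusted p = 6.52e-09). Cacng6, a calcium channel gamma subunit, had 10.0 and 9.23 RPM in MT at 2650 nt and was unlisted in MB (adjusted p = 0.000144), as was the site of the olfactory receptor gene Olfr805 at 2919 nt, with 10.6 and 10.7 RPM (adjusted p = 0.000108). Pigb, a mannosyltransferase of GPI anchor synthesis, had 55.4 and 62.7 RPM in MT and 10.8 and 18.4 RPM in MB (2.14 ± 0.22, adjusted p = 8.4e-05). Nfatc2ip, a protein that binds the transcription factor NFAT, had 20.9 and 25.6 RPM in MT and 1.91 and 4.09 RPM in MB (3.05 ± 0.32, adjusted p = 0.0001). These 5 sites were taken from those called, so that their groups do not overlap follows from the choice and adds no support. Grtp1, Cacng6 and Olfr805 passed the count filter through MT alone.

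The isolated sites higher in MB were those of Gls2, Plekha2, Tm9sf1 and Ptgir. The Gls2 site had 8.29 and 5.88 RPM in MB and was unlisted in MT (adjusted p = 0.00053). It passed the count filter through MB alone. Ptgir, the prostacyclin receptor, had 31.9 and 22.3 RPM in MB and 5.43 and 7.34 RPM in MT (-1.90 ± 0.28, adjusted p = 0.000627).

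At gene ends, the site of A930016O22Rik, 1 nt past Ckm, the muscle creatine kinase, had 519 and 524 RPM in MT and was unlisted in MB (adjusted p = 7.66e-08). The Fut1 site at the end of Fgf21 had 217 and 238 RPM in MT and was unlisted in MB total RNA (adjusted p = 2.38e-07). The Ccdc85b site past Fosl1 had 43.1 and 42.5 RPM in MB and was unlisted in MT (adjusted p = 4.63e-06). The sites of Shc1, Eme2 and Hist1h2bl were also listed in MB and not in MT. All these gene-end sites passed the count filter through 1 state alone.

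Between cytoplasmic and total RNA of untreated C2C12 cells, 26 of 212 sites tested were higher in the cytoplasm and 20 in total RNA, against 25% of all PASs (9.39% and 15.6%). The cytoplasmic libraries belong to the stress experiment and the total RNA libraries to the differentiation experiment, so fraction and experiment cannot be told apart. Among the 60 isolated sites tested, 2 were higher in the cytoplasm and 6 in total RNA. The Grtp1 site had 5.5 and 8.06 RPM in MT cytoplasm, below the total RNA values given above (-2.22 ± 0.36, adjusted p = 0.0100). Ibtk at 1202 nt was unlisted in the cytoplasm of untreated cells and had 2.81 to 6.24 RPM in total RNA (adjusted p = 0.0105). The test took unlisted values as 0. In the shallowest cytoplasmic library, MB NT 1, 5 reads were worth 3.25 RPM. The lowest Ibtk level could thus go unlisted there without any difference, and its p-value partly reflects this limit. Pcif1 at 4447 nt was listed in MT total RNA alone, at 4.34 and 5.68 RPM (adjusted p = 0.0448). It passed the count filter through that group alone. The sites of Hist1h2bf (2 sites), Gm17617 and BC048502 also ranked low in the cytoplasm. At gene ends, those of Gtf3c6, Gm9774, Chi3l7, Haghl and Dusp12 were the highest in the cytoplasm.

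Of 18 heat shock genes, 10 had an upstream antisense site and 7 an isolated one, against 1490 of 22367 protein-coding genes with an isolated one. A site counted when any library listed it, stressed ones included, and some of these sites were listed in 4sU RC4 alone. The share of heat shock genes with a site can therefore be partly set by the stressed libraries. Of the 15 heat shock sites, 6 were tested in 4sU and Ft RNA, against 650 of all 2973 sites. The called one was the Hspd1 site at the end of Hspe1. Hsph1, a heat shock protein of the HSP110 family, had an isolated site at 3709 nt with 89 reads in 4sU RC4. The site was unlisted in the other 37 libraries, so it passed the count filter through that library alone. An isolated site of Hspb1 at 1650 nt, a small heat shock protein gene, was likewise listed in 4sU RC4 alone, with 20 reads. Of 33 immediate early genes, 9 had a site. Of their 16 sites at most 1, that of Cyr61, was tested in any comparison and 0 in total RNA and input, so the absence of calls says little about the list. The site past the end of Fosl1 counts under Ccdc85b, whose start it precedes. The Cyr61 site at 2110 nt, upstream of a matricellular protein gene, had 2.82 and 4.67 RPM in Ft NT, 7.78 in AS and 11.7 in RC4 (adjusted p = 0.128 for RC4 against NT).

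Of 14 targets of the antioxidant factor NRF2, Gclc, Hmox1, Srxn1 and Txn1 had 1 isolated site each, and of 15 myogenic genes, Id1, Id2, Id3 and Mef2d had 7 sites in all. None of the NRF2 sites was tested in any comparison, and 1 myogenic site, that of Id3, was tested, in C2C12 cytoplasm alone, where it did not pass (adjusted p = 0.283 at RC4). The Hmox1 site, at 1124 nt before the heme oxygenase gene, had 5 reads in 4sU AS and none listed elsewhere. Of 37 genes of RNA decay, cap binding, the Integrator complex and U1 snRNP, 31 were tested in total RNA after arsenite. By edgeR 0 were called, against 0% of 9124 genes, with 0 at an unadjusted p under 0.05 and 0 by DESeq2. With the replicate number as a block 0 of the 31 were called, against 26 of all 9124 genes (0.285%).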

How the data were processed

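The authors mapped the 3′READS reads of 38 libraries to mm9 (the submitters' notes name Bowtie2, STAR and cutadapt) and deposited read counts per PAS, raw and with PASs under 5 reads not listed. The 4 RNA-seq libraries were not used. Positions on 1 strand within 24 nt were joined, which made 83916 PASs of 99725 positions, and set against GENCODE M1 (37310 genes, 22380 protein-coding). Counts per PAS were tested with edgeR 4.0.16 (quasi-likelihood, TMM, filterByExpr) over all PASs outside the mitochondrial genome, with Benjamini-Hochberg adjustment, in R 4.3.3, and DESeq2 1.42.0 was an alternative. Scripts were tested on simulated data. Levels are RPM over PAS reads outside the mitochondrial genome. 4sU values were not adjusted for the number of uridines, which affects capture.

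The members and lists were chosen with earlier results of these data known. Named sites were the 10 with the most reads, 1 a gene, the 5 called sites with the largest change in each direction of each comparison, and sites of heat shock, immediate early, NRF2 and myogenic genes. Other isolated sites were named after their values were seen. Same-numbered NT and AS libraries of total RNA deviated together (r = 0.837, 0.861 and 0.750). The main fit left this pairing out, and the block changed no call of a member. Intervals cover counting error only. Unlisted groups get no fold. Alternatives were other size factors, no filter, DESeq2, the replicate block, leaving out each replicate, nearer sites, isolated sites, leaving out the 10 largest sites, and the common floor, which was added after seeing the data.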

Additional observations from a re-analysis of the deposited data

Results flagged for a closer look

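The summed level of isolated sites at RC4 relative to NT moved in opposite directions in the 2 fractions. The log2 ratio was 0.40 in 4sU RNA, where RC4 was above both NT libraries, and -0.54 in Ft RNA, where RC4 was below both, without the 10 largest sites. The difference was not tested.

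The TIA1 pull-down libraries were tested against no other group, though they were in the fit of the input test. They held more of the isolated sites than their input in 4 of 4 pairs. This is above the floor common to the experiment and without the 10 largest sites. In NT the TIA1 libraries had 828 and 1185 RPM against 305 and 513 RPM in the input (log2 ratio of the means 1.30). In AS they had 610 and 635 RPM against 404 and 516 RPM (log2 ratio 0.44). Gene-end sites were lower in TIA1 than in input, at 6938 to 7594 RPM against 8020 to 9672 RPM. With the 10 largest isolated sites and no floor, TIA1 was below input in 3 of 4 pairs, with 2589 against 2796 RPM in NT replicate 2 and 993 against 1299 and 1575 against 2134 RPM in AS, and NT replicate 1 had 1253 against 1242 RPM. The Ceacam9 site alone had 108 to 970 RPM in TIA1 and 431 to 1820 RPM in input.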

How the results depend on the processing

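In several comparisons the sums over all members depended on which sites were summed. The log2 ratio of their share of reads from 4sU to Ft was -0.22, and -0.037 within 2 kb, -0.14 for isolated sites with all their largest members, and 0.053 without the 10 largest sites. For AS to NT it was -0.07 in 4sU (-0.0230 within 2 kb, 0.18 isolated, -0.0231 without the 10 largest, 0.0049 with the common floor), 0.04 in Ft (-0.0085 within 2 kb, -0.00062 without the 10 largest), -0.12 in input (-0.19 within 2 kb, -0.23 isolated) and -0.06 in C2C12 cytoplasm (-0.11 and -0.22). For RC4 to NT it was -0.04 in total RNA (0.14 isolated), -0.0076 in 4sU (0.0053 within 2 kb, 0.33 isolated, -0.0059 without the 10 largest, -0.083 with the floor), -0.04 in Ft (-0.71, -0.19 and -0.32) and 0.14 in C2C12 cytoplasm (-0.33, -0.071 and -0.13), in the order within 2 kb, isolated and without the 10 largest. In each the cause was not tested, beyond that fewer sites were summed.

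The 91 calls of 4sU against Ft were 44 without the replicate block, 30 within 2 kb and 33 for isolated sites, 54 to 84 leaving out 1 pair each, lowest without the NT4h sample, 78 in NT only and 118 by DESeq2. Without a filter on low counts, 4sU AS had 16 calls, 4sU RC4 50, Ft AS 4 and Ft RC4 75. By DESeq2, 4sU AS had 6, Ft AS 1, C2C12 AS 4 and C2C12 RC4 21. Within 2 kb and for isolated sites, RC4 had 5 and 4 calls in 4sU, 6 and 6 in Ft and 3 and 1 in C2C12, and MT against MB had 37 and 26, and cytoplasm against total 15 and 8. Leaving out 1 library gave 2 to 3 calls for 4sU RC4, 2 to 4 for Ft RC4, 1 to 14 for C2C12 RC4 (1 without either RC4 library, 5 without MB NT 1, 7 and 6 without MT NT 1 and 2), 69 to 118 for MT against MB and 19 to 49 for cytoplasm against total (23 and 19 without MT total 2 and 3, 24 and 25 without MB total 2 and 3). The replicate block gave 0 calls for total RNA, 0 for input (r = 0.583 over 2 pairs) and 92 for MT against MB, whose samples share only a number (r = 0.0389). These are calls of members. Without a filter and by DESeq2, each count given above was a smaller share of the members tested than the share of all PASs called. The block changed no call of the genes of RNA decay, cap binding, Integrator and U1. Over all features the block called 10 of 20317 PASs (0.0492%) in input and 26 of 9124 genes (0.285%) in total RNA. The lone AS and RC4 libraries could not be blocked. Of 156 alternatives, 97 left the result as it was, 48 moved it and 11 reversed a sum.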
